A study of Mus musculus with 4 samples.

Results

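The genes described here are Dhtkd1 and 7 further genes of lysine breakdown, Aass, Aadat, Gcdh, Aldh7a1, Pipox, Dlst and Crym. They were chosen by name, with earlier results of these data known. All 8 were found among the 50584 gene symbols of the count tables, and all 8 passed the filter on low counts. They were compared between the livers of DBA/2J and C57BL/6J mice, both inbred laboratory strains, with 2 libraries per strain. All animals were wild-type males, 14 weeks old and fed chow. Poly(A)-selected RNA was sequenced as single-end reads of 100 bases, and the counts assigned to genes ran from 48096706 to 52520737 per library.

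Lysine is broken down in liver mitochondria mainly through saccharopine. The route leads through 2-aminoadipate semialdehyde and 2-aminoadipate to 2-oxoadipate, which also arises from tryptophan. That compound is converted by the 2-oxoadipate dehydrogenase complex to glutaryl-CoA and then to crotonyl-CoA. A side branch runs through pipecolate and rejoins the main route at the 2-aminoadipate semialdehyde. In humans, loss of DHTKD1 is associated with 2-aminoadipic and 2-oxoadipic aciduria, loss of GCDH with glutaric aciduria and loss of ALDH7A1 with pyridoxine-dependent epilepsy. In the BXD mouse panel, bred from these strains, Dhtkd1 has been studied in connection with 2-aminoadipate levels.

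Of the 8 genes, 2 were higher and 1 was lower in DBA/2J at an adjusted p below 0.05 in edgeR's quasi-likelihood test. Over all 15647 tested genes, 9.29% were called higher and 8.87% lower, 18.2% in either direction. Dhtkd1 and Crym were higher in DBA/2J by 3.14-fold and 7.17-fold, and Gcdh was lower by 1.47-fold. The other 5 genes were not called. The median log2 difference of the 8 genes (DBA/2J minus C57BL/6J) was 0.15, against 0.01 over all tested genes. The libraries of the strains did not overlap for 5 of the 8, against 63.8% of all tested genes.

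**Figure D1:**
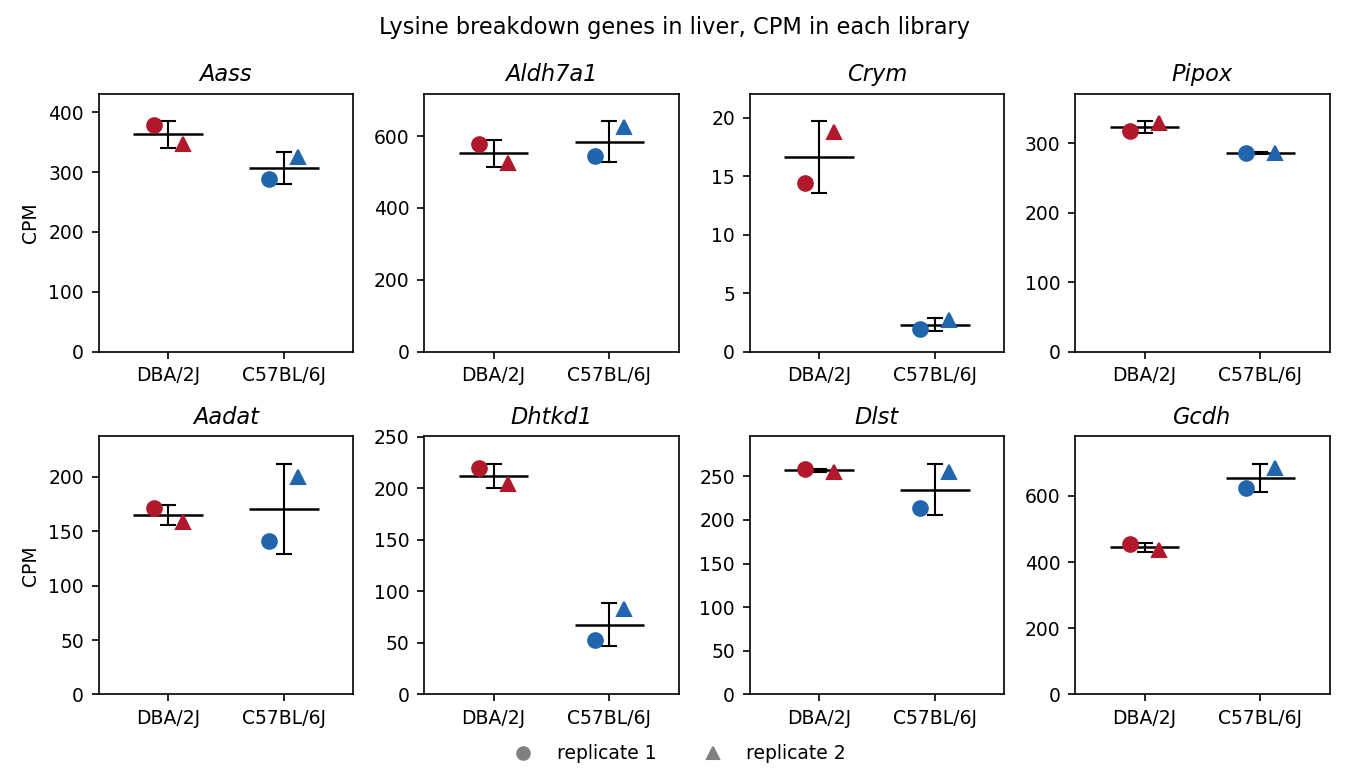
CPM of each gene (vertical axis, starting at 0) in each library, by strain, with the mean as a horizontal line and the SD (n = 2) as a bar. Dhtkd1 and Crym lie higher in both DBA/2J libraries and Gcdh lies lower in both, while Aadat, Aldh7a1 and Dlst overlap between strains.

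Dhtkd1 encodes the E1 component of the 2-oxoadipate dehydrogenase complex, which makes glutaryl-CoA. It lies on chromosome 2 at 5896115 to 5942792 (GRCm38, reverse strand), and its principal transcript in GENCODE release M21 has 17 exons and 5480 bases. The DBA/2J libraries held 10613 (replicate 1) and 11273 (replicate 2) Dhtkd1 counts, the C57BL/6J libraries 2568 (replicate 1) and 4113 (replicate 2). Both DBA/2J libraries were above both C57BL/6J libraries, and the C57BL/6J libraries differed more from each other than the DBA/2J libraries did. Scaled to library size, DBA/2J averaged 212 CPM ± 11.5 (SD, n = 2), while C57BL/6J averaged 67.6 CPM ± 21 (SD, n = 2). The log2 difference was 1.65 ± 0.21 (SE), with an edgeR adjusted p of 0.0075. A difference of at least this size, in either direction, was found in 955 of 15647 tested genes (6.10%). The direction held with any library left out, at 1.36 to 2.01. The call was lost when either DBA/2J library was left out, at log2 differences of 1.58 without replicate 1 and 1.70 without replicate 2. Most calls over all tested genes were also lost in these fits, where the spread rests on the C57BL/6J libraries.

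The sequence around the annotated start of Dhtkd1 is shown because this gene had the larger difference among the 2 called genes whose promoter is in the RefSeq table used (GRCm38.p6). The window covers 250 bases before to 50 bases after the start. That of Gcdh, the gene called lower, stands beside it for comparison. Capitals mark matches to the motifs searched.
Dhtkd1, chr2:5942743-5943042, reverse strand: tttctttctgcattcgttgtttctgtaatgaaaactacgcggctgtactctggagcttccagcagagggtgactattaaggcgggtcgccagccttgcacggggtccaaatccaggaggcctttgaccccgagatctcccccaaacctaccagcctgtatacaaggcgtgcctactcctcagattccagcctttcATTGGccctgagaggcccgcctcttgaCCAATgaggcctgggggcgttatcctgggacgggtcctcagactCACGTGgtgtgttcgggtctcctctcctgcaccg
Gcdh, chr8:84893872-84894171, reverse strand: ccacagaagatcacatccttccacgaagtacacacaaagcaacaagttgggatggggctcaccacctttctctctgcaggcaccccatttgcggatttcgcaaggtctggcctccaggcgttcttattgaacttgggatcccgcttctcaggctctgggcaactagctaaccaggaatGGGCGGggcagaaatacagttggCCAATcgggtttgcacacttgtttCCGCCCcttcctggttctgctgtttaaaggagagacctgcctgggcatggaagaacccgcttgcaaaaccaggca
The motifs searched on both strands were the TATA box TATAAA, the box of the factor NF-Y (CCAAT), the GC box of Sp1 (GGGCGG), the E-box CACGTG, the cyclic AMP response element TGACGTCA, the nuclear receptor site TGACCT and the steroid receptor site TGTTCT, together with the direct repeat of AGGTCA spaced by 1 base and the HNF1 palindrome. AGGTCA is the reverse complement of TGACCT, so the repeat contains that motif. The Dhtkd1 window held 2 CCAAT matches, at positions -55 and -28 from the start, and a CACGTG match at position 17. CCAAT occurs in 37.4% of the 32851 windows of this length in the table, and CACGTG in 7.15%. The Gcdh window held a CCAAT match at position -49 and 2 GGGCGG matches, at -72 and -25, a motif found in 35.7% of windows. Neither window held TATAAA, which occurs in 13.6% of windows. These matches describe the reference letters only.

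Of 8 tested genes starting within 250 kb of the Dhtkd1 start, 1 was called higher and 0 lower in edgeR. Over all tested genes these shares were 9.29% and 8.87%. At an unadjusted p below 0.05, 1 neighbour was higher and 1 lower, and DESeq2 called 0 higher and 0 lower. The called neighbour was Gm13267, annotated as an antisense transcript on the opposite strand, whose exons share 120 bases with the 3′ part of Dhtkd1, 1.89% of the exon length counted for Dhtkd1. The Gm13267 counts were 40 and 32 in the DBA/2J libraries and 11 and 6 in the C57BL/6J libraries, a log2 difference of 2.00 ± 0.47 (edgeR adjusted p = 0.0391). That call was lost in DESeq2, without a filter on low counts, and when DBA/2J replicate 1, DBA/2J replicate 2 or C57BL/6J replicate 2 was left out. The file header carries no strand option, so reads from Gm13267 and from unspliced or extended Dhtkd1 RNA cannot be told apart. The protein-coding neighbours Upf2, whose start lies 8.68 kb away, and Sec61a2, 47.4 kb away, had log2 differences of 0.18 and 0.23 and were not called.

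**Figure D2:**
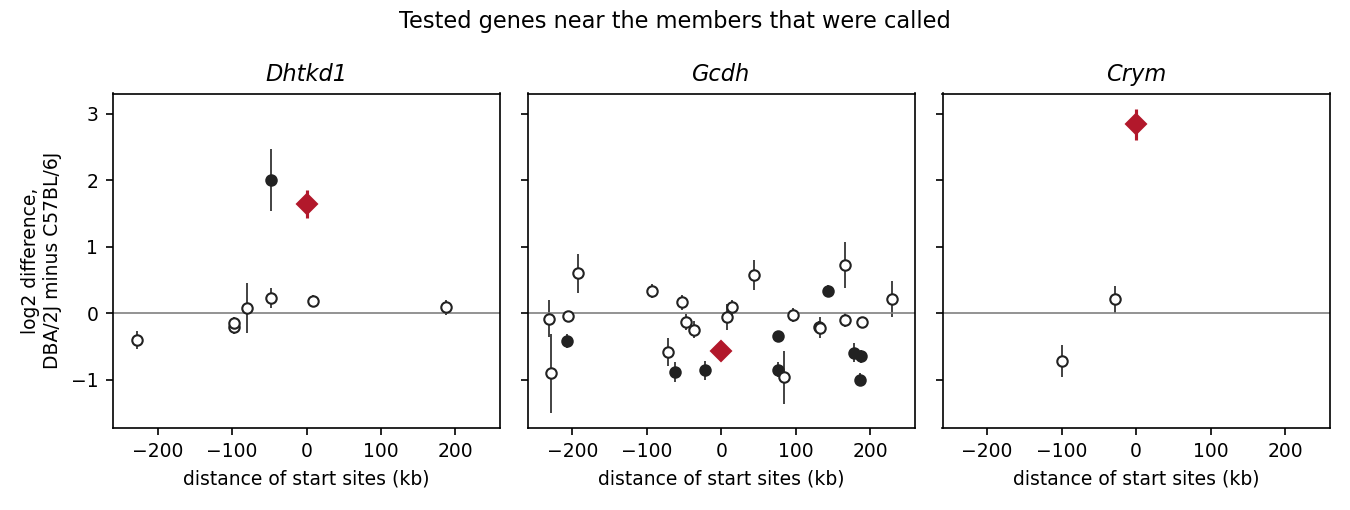
Log2 difference between strains (vertical axis, bar: SE) of tested genes by the distance of their start from that of Dhtkd1, Gcdh or Crym (horizontal axis, in kb, positive towards higher chromosome coordinates). Filled points passed an adjusted p below 0.05 and diamonds mark the named gene. Near Dhtkd1 the filled point is Gm13267 at 2.00. Near Gcdh, of 29 points, 8 are called lower and 1 higher.

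The E1 component acts with an E2 subunit encoded by Dlst and an E3 subunit encoded by Dld, both shared with the 2-oxoglutarate dehydrogenase complex, whose own E1 is encoded by Ogdh. Dlst had 258 and 255 CPM in DBA/2J and 214 and 255 CPM in C57BL/6J, so that the strains overlapped. Its log2 difference was 0.13 ± 0.11 (edgeR adjusted p = 0.443). Dld and Ogdh had log2 differences of 0.05 ± 0.10 and -0.02 ± 0.10, and neither was called (edgeR adjusted p = 0.78 and 0.926). Ogdhl, a further paralog, had 6 to 9 counts per library and was not tested.

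Because a ratio of 2 genes within a library does not depend on the scaling between libraries, Dhtkd1 was also set against these partners, as CPM per kilobase of all annotated exons (RPKM). The ratio of Dhtkd1 to Ogdh was 0.772 and 0.758 in the DBA/2J libraries and 0.202 and 0.275 in the C57BL/6J libraries. The groups did not overlap, and the difference of the log2 ratios was 1.70. An exact two-sided permutation test over the 4 libraries gave p = 0.333, the smallest p that this design allows. The ratio of Dhtkd1 to Dlst was 0.372 and 0.349 in DBA/2J and 0.108 and 0.141 in C57BL/6J, and that of Dhtkd1 to Gcdh was 0.211 and 0.203 against 0.0366 and 0.0524. The ratio of Ogdh to Dlst was 0.482 and 0.460 in DBA/2J and 0.532 and 0.512 in C57BL/6J. These groups did not overlap either, with a smaller difference of the log2 ratios of -0.15.

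**Figure D3:**
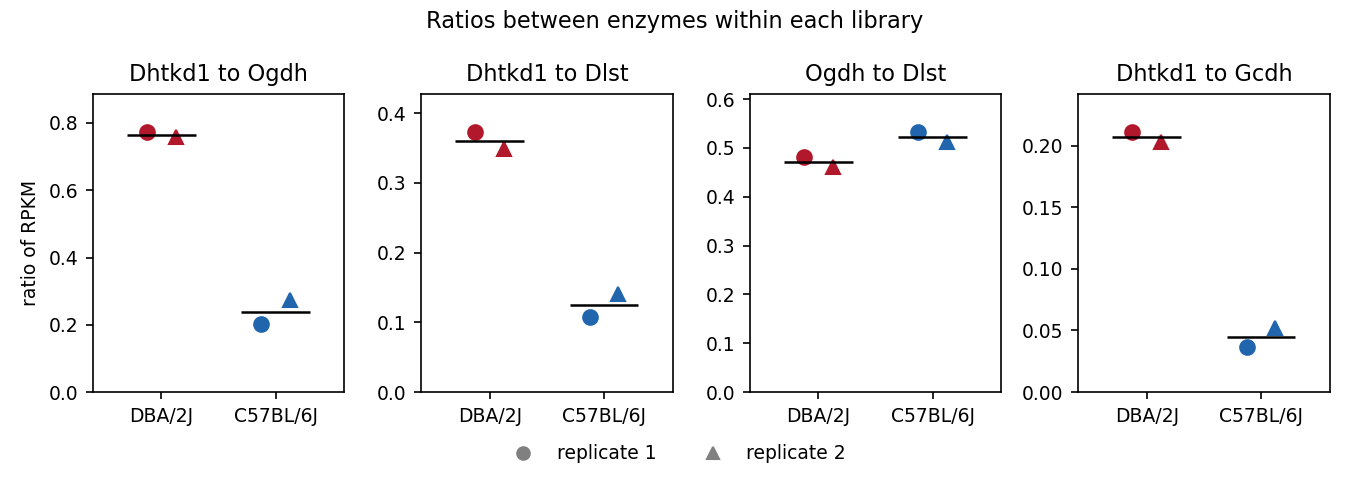
Ratio of RPKM between named enzymes within each library (vertical axes, starting at 0), by strain, with the mean as a line. Dhtkd1 to Ogdh is 0.758 or above in DBA/2J and 0.275 or below in C57BL/6J. Ogdh to Dlst is 0.482 or below in DBA/2J and 0.512 or above in C57BL/6J.

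Gcdh encodes glutaryl-CoA dehydrogenase, the mitochondrial enzyme that converts glutaryl-CoA to crotonyl-CoA and so uses the product of the Dhtkd1 step. It lies on chromosome 8 at 84886393 to 84893921 (GRCm38, reverse strand). Gcdh had 21895 and 24107 counts in DBA/2J and 30474 and 34153 in C57BL/6J. Both DBA/2J libraries were below both C57BL/6J libraries, at 454 and 436 CPM against 625 and 684 CPM. The log2 difference was -0.56 ± 0.10 (SE, edgeR adjusted p = 0.0185), the opposite direction to Dhtkd1. It ranged from -0.63 to -0.49 with a library left out. The call was lost when DBA/2J replicate 1 or 2 was left out, as were most calls over all tested genes. Of 29 tested genes starting within 250 kb of Gcdh, 8 were called lower and 1 higher, against 8.87% and 9.29% of all tested genes. The called genes within 100 kb were Rnaseh2a, which encodes a subunit of ribonuclease H2 (-0.85), Syce2, a synaptonemal complex gene (-0.85), the mitochondrial ribosome gene Gadd45gip1 (-0.88) and the peroxiredoxin gene Prdx2 (-0.34), all on the log2 scale and all lower in DBA/2J. The genes closest to Gcdh, Klf1 and Dnase2a, stood at -0.05 and 0.09 and were not called. The calls among the 29 neighbours were also lost when either DBA/2J library was left out. With library totals alone, 5 were called lower and 2 higher, and without a filter on low counts 5 lower and 0 higher. The Prdx2 call was lost under both of these settings and with exon length offsets.

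Crym encodes mu-crystallin, a thyroid hormone-binding protein that also acts as a ketimine reductase of the pipecolate branch. It lies on chromosome 7 at 120186380 to 120202111 (GRCm38, reverse strand); its promoter is not analysed here. Crym had 697 and 1041 counts in DBA/2J and 93 and 136 in C57BL/6J. Every DBA/2J library was above every C57BL/6J library, at 14.4 and 18.8 CPM against 1.91 and 2.72 CPM. The log2 difference was 2.84 ± 0.23 (SE, edgeR adjusted p = 0.002), a size reached in either direction by 430 of 15647 tested genes (2.75%). Crym kept its call with any single library left out, at log2 differences of 2.61 to 3.12. Both tested genes starting within 250 kb of Crym, Anks4b and Tmem159, were not called, with log2 differences of 0.21 and -0.72. At an unadjusted p below 0.05, 0 were higher and 1 was lower, and DESeq2 called 0 higher and 0 lower.

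Pipox encodes the peroxisomal oxidase that acts on pipecolate, the later step of the same branch. It had 317 and 329 CPM in DBA/2J and 286 and 285 CPM in C57BL/6J. The strains did not overlap, but the log2 difference of 0.18 ± 0.08 did not pass the test (edgeR adjusted p = 0.185). The ratio of Crym to Pipox in RPKM was 0.0332 and 0.0416 for DBA/2J and 0.00485 and 0.00696 in C57BL/6J, so Crym was the far less abundant transcript of the branch in both strains.

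The genes of the saccharopine route before 2-oxoadipate, Aass, Aldh7a1 and Aadat, were not called. Aass, whose product carries out the opening steps that form and cleave saccharopine, had 379 and 347 CPM in DBA/2J and 288 and 326 CPM in C57BL/6J. These libraries did not overlap, and the log2 difference was 0.24 ± 0.10 (SE, edgeR adjusted p = 0.162). Aldh7a1, which encodes the dehydrogenase that oxidises 2-aminoadipate semialdehyde, had 579 and 525 CPM against 544 and 625 CPM. The log2 difference of Aldh7a1 was -0.08 ± 0.12 (edgeR adjusted p = 0.656). Aadat, which encodes the aminotransferase that makes 2-oxoadipate, had 171 and 158 CPM against 141 and 199.6 CPM, with a log2 difference of -0.05 ± 0.17 (edgeR adjusted p = 0.866). For Aldh7a1 and Aadat the strains overlapped, and for Aadat the lowest and the highest library were both C57BL/6J.

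**Figure D4:**
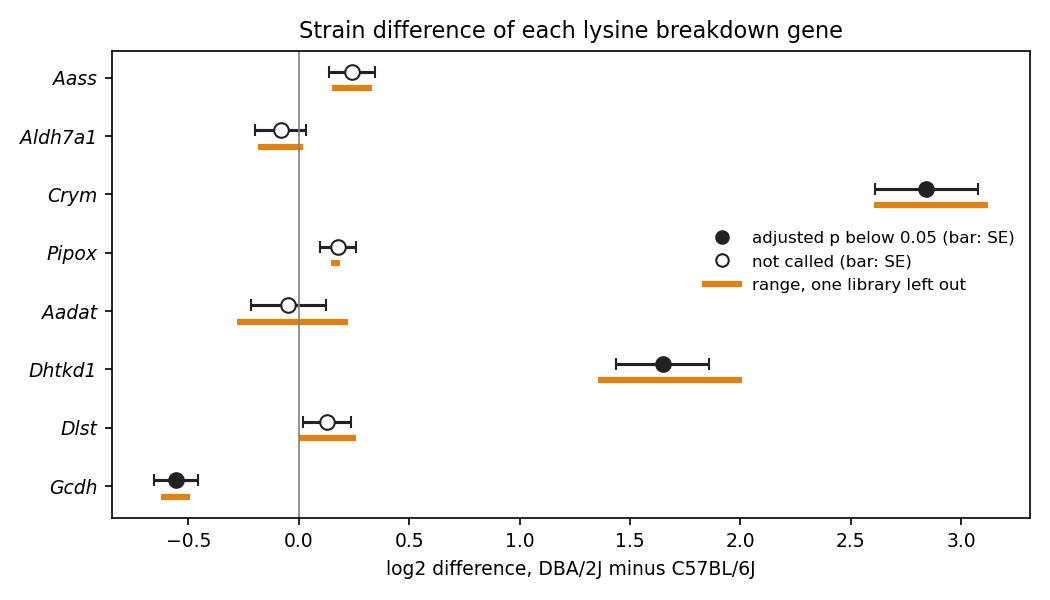
Log2 difference between strains of each gene (horizontal axis; points with SE bars, filled where the adjusted p was below 0.05) and, as orange lines, the range of the value when each library was left out in turn. Crym, Dhtkd1 and Gcdh stand at 2.84, 1.65 and -0.56, and the orange lines of Aadat and Aldh7a1 cross 0.

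Levels of different genes were compared as RPKM. In DBA/2J the order from the highest was Gcdh, Pipox, Aldh7a1, Aass, Dlst, Aadat, Dhtkd1 and Crym. In that strain the libraries of Aass and Dlst overlapped, and all other neighbours in the order were separate. Gcdh stood at 162 RPKM ± 4.64 (SD, n = 2), Dhtkd1 at 33.5 RPKM ± 1.81 and Crym at 4.91 RPKM ± 0.911. In C57BL/6J the order was Gcdh, Pipox, Aldh7a1, Dlst, Aass, Aadat, Dhtkd1 and Crym. There Pipox overlapped Aldh7a1, Dlst overlapped Aass, and Aass overlapped Aadat. Gcdh stood at 238 RPKM ± 15.2 in C57BL/6J, Dhtkd1 at 10.7 RPKM ± 3.32 and Crym at 0.683 RPKM ± 0.170. The mean level of Gcdh was thus 22.3 times that of Dhtkd1 in C57BL/6J and 4.83 times in DBA/2J. The length used sums all annotated exons of a symbol. With the length of the principal transcript instead, an alternative chosen after seeing the data, Aldh7a1 had the highest mean in both strains, at 288 RPKM ± 19.7 in DBA/2J and 305 RPKM ± 30.0 in C57BL/6J. Gcdh followed at 205 RPKM ± 5.90 and 302 RPKM ± 19.3, separate from Aldh7a1 in DBA/2J and overlapping it in C57BL/6J. Dhtkd1 and Crym kept the places 7 and 8 with that length in both strains.

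Other genes of lysine handling were called in both directions. Over all tested genes, 9.29% were called higher and 8.87% lower, the shares to read beside this and the following lists. The list held 14 genes for lysine transport, hydroxylysine and trimethyllysine use, and related enzymes; 13 were tested, 1 was called higher and 2 lower in DBA/2J, with a median log2 difference of 0.02. Slc7a2, which encodes a cationic amino acid transporter of the hepatocyte membrane, was higher, with a mean of 969 CPM in DBA/2J against 687 CPM in the other strain (0.50 ± 0.12 on the log2 scale, edgeR adjusted p = 0.0438). The Slc7a2 call was lost with RLE size factors, without a filter on low counts and with exon length offsets. Kyat3, which encodes a kynurenine aminotransferase, was lower by -0.73 ± 0.08 (edgeR adjusted p = 0.0042), and Phykpl, which encodes the lyase of phosphohydroxylysine, by -0.45 ± 0.11 (edgeR adjusted p = 0.0382). Slc25a21, the mitochondrial carrier of 2-oxoadipate, stood at 0.20 ± 0.14, and Sugct, which activates free glutarate to glutaryl-CoA, at 0.31 ± 0.11. Neither was called (edgeR adjusted p = 0.371 and 0.116).

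Downstream of glutaryl-CoA, 10 genes were tested, 0 were called higher and 1 lower in edgeR, with a median log2 difference of 0.03. At an unadjusted p below 0.05, and in DESeq2, 1 was higher and 2 were lower. The gene called in edgeR was Etfb, which encodes a subunit of the electron transfer flavoprotein that takes electrons from glutaryl-CoA dehydrogenase. Etfb was lower by -0.85 ± 0.11 (edgeR adjusted p = 0.0076). Etfa, the other subunit, and Etfdh, its quinone oxidoreductase, stood at -0.02 and 0.24 and were not called. Etfb averaged 22.2 CPM in DBA/2J and 40.1 CPM in C57BL/6J, far below Etfa at 389 and 393 CPM. The reason for this gap was not tested. Of 8 genes from tryptophan to 2-oxoadipate, 1 was called higher and 0 lower in edgeR, with a median of 0.13. At an unadjusted p below 0.05, 2 were higher and 0 lower, and DESeq2 called 1 higher and 0 lower. The gene called in edgeR was Ido2, which encodes an indoleamine dioxygenase, at 0.59 ± 0.14 (edgeR adjusted p = 0.0388). Tdo2, the main hepatic tryptophan dioxygenase gene, stood at 0.07 ± 0.20 (edgeR adjusted p = 0.842).

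Of 10 tested genes for subunits of 2-oxoacid dehydrogenase complexes, 2 were called higher and 0 lower in edgeR, with a median of 0.12. At an unadjusted p below 0.05, 3 were higher and 1 lower, and DESeq2 called 2 higher and 1 lower. Bckdhb, which encodes an E1 subunit of the branched-chain complex, was higher by 0.74 ± 0.09 (edgeR adjusted p = 0.0057) and Dlat, the E2 of the pyruvate complex, by 0.35 ± 0.08 (edgeR adjusted p = 0.0306). The E2 subunits carry lipoic acid. Of 10 genes of lipoylation and its iron-sulfur supply, 0 were called higher and 1 lower, Glrx5, a glutaredoxin of iron-sulfur cluster assembly, at -0.39 ± 0.09 (edgeR adjusted p = 0.0318). That list had a median of -0.22, and 8 of its 10 genes had negative values. At an unadjusted p below 0.05, 1 gene was higher and 6 were lower, and DESeq2 called 0 higher and 2 lower. The Glrx5 call was lost with library totals alone, without a filter on low counts and with exon length offsets. Each of the calls in these 5 lists was lost without DBA/2J replicate 1 and without DBA/2J replicate 2, as were most calls over all tested genes.

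**Figure D5:**
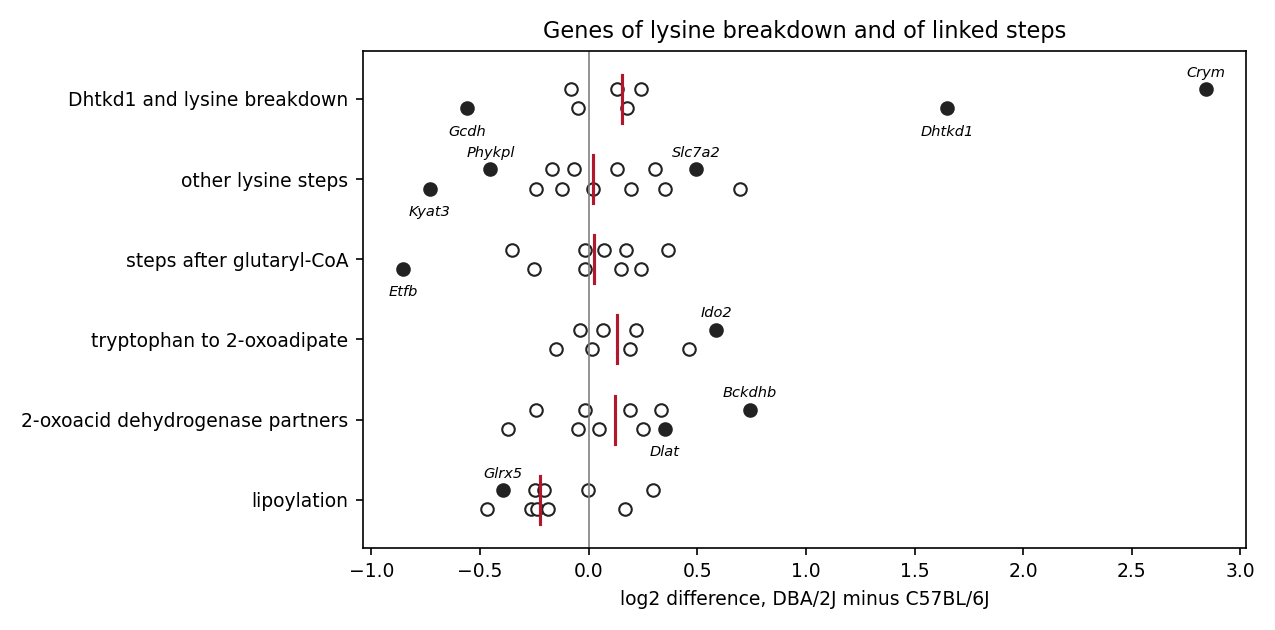
Log2 difference between strains (horizontal axis) of each tested gene in the lysine breakdown set and in 5 lists of linked steps, with called genes filled and named and each list's median as a red line. Crym at 2.84 and Dhtkd1 at 1.65 lie farthest from 0, and called genes of the other lists lie between -0.85 and 0.74.

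Among tested genes averaging 5 CPM or more, those whose profile over the 4 libraries was closest to that of Dhtkd1, by Euclidean distance of centred log2 CPM over 9401 candidates, were Slc3a1, Mup21 and Sdr9c7, at distances of 0.14, 0.15 and 0.16. Slc3a1, a subunit gene of the transporter for cystine and dibasic amino acids, had 95.5 and 82.0 CPM in DBA/2J and 24.2 and 34.4 CPM in C57BL/6J. The closest to Gcdh were Sqle, Akr1b3 and Rexo2, at 0.03 each. Of these, Akr1b3, at 4.50 to 6.95 CPM, was not called (edgeR adjusted p = 0.0692). The closest to Crym were Gpat3, Ugt1a9 and Osbpl3, at 0.29, 0.34 and 0.37. The distances are not scaled to the size of the strain difference, so they do not compare likeness between Dhtkd1, Gcdh and Crym.

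C57BL/6J replicate 1 stood apart in acute phase genes. Of the 8 lysine breakdown genes, 7 were lower in it than in C57BL/6J replicate 2, against 51.4% of all tested genes. Among these 7 the log2 gap ran from 0.13 (Gcdh) to 0.64 (Dhtkd1). The SD of this gap over all tested genes was 0.59. A link to the acute phase genes was not tested. Dhtkd1 had 52.7 CPM in replicate 1 and 82.4 CPM in replicate 2. Summed over 14 acute phase genes, the level was 38610.3 CPM in C57BL/6J replicate 1, 22268 CPM in replicate 2, and 20800.5 and 17757 CPM in DBA/2J. The gap between the C57BL/6J libraries varied by gene. In replicates 1 and 2, Saa1 had 1968 and 138 CPM, Saa2 1365 and 36.0 CPM, and the more abundant Fga 7197 and 4788 CPM. Of these 14 genes, edgeR called 1 higher and 2 lower in DBA/2J, while 9 were lower at an unadjusted p below 0.05 and 8 were called lower in DESeq2. Their median log2 difference was -0.99, with 13 of 14 negative. Leaving out C57BL/6J replicate 1 gave 4 called lower, leaving out replicate 2 of that strain gave 10, and leaving out either DBA/2J library gave 0. The summed level of 4 neutrophil markers was 5.89 CPM in C57BL/6J replicate 1 and 0.253 to 0.497 CPM in the other 3 libraries, and 2 of the 4 were tested, with 0 called in edgeR, 0 at an unadjusted p below 0.05 and 1 called lower in DESeq2. Without C57BL/6J replicate 1 the log2 difference was 1.36 for Dhtkd1, 2.61 for Crym and -0.63 for Gcdh. That fit leaves 1 C57BL/6J library, so the spread within this strain was not measured in it.

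In whole liver, fewer cells of a type and less RNA per cell cannot be told apart. Hepatocyte markers were abundant, with a summed level of 80141 to 91564 CPM per library for 5 genes, none of them called. Kidney, a tissue where lysine is also broken down, left almost no marker signal: of 4 kidney markers, Slc34a1, Kap and Slc12a1 had 0 counts in every library, and Umod had 2 counts in 1 library and 0 in the others. Of 8 pericentral markers, edgeR called 0 higher and 2 lower, Glul (-0.46) and Oat (-0.96). Log2 differences were negative for 6 of them and positive for 2, Cyp1a2 (0.40) and Rhbg (0.54), neither called. The 8 markers summed to 7479 to 8618 CPM in DBA/2J and 8818 to 8915 CPM in C57BL/6J. Most of this was Cyp2e1, not called, at 6073 and 5367 CPM in DBA/2J and 6361 and 5984 CPM in C57BL/6J. At an unadjusted p below 0.05, and in DESeq2, 1 pericentral marker was higher. Of 8 periportal markers, 0 were called in edgeR, 3 were higher at an unadjusted p below 0.05 and 1 was called higher in DESeq2. Their summed levels overlapped between strains, at 9696 and 9131 CPM in DBA/2J and 7704 and 9842 CPM in C57BL/6J. The calls of Glul and Oat were lost without either DBA/2J library, and that of Oat also without a filter on low counts and with exon length offsets. The part of these markers in the results on lysine breakdown was not tested.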

How the data were processed

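Liver poly(A) RNA of 4 mice was analysed, 2 per strain, as separate animals per the series' design text. The deposited tables give raw read counts for each gene symbol. Per the file headers, the authors produced these counts with featureCounts 2.0.1 on exons of Ensembl release 88 (GRCm38), with no strand option; the submitters' processing notes name STAR 2.4.0g1 and featureCounts 1.5.2. The labels describe single-end reads, although the header sets the option for read pairs. The notes name a single reference assembly (mm10, GRCm38) for both strains, so reads carrying DBA/2J alleles can be lost.

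Counts were tested with edgeR 4.0.16 (R 4.3.3), by the quasi-likelihood F test with legacy=FALSE, TMM scaling and a strain term alone, after filterByExpr with a minimum count of 10. P-values were adjusted by Benjamini-Hochberg over 15647 genes, with calls below 0.05. SEs were derived from the F statistic. CPM used TMM-scaled library sizes, and RPKM divided CPM by exon length in kilobases. The fit was tested on simulated data. DESeq2 1.42.0, other scalings, filters and lengths, a replicate block and each library left out were tried as alternatives. With all 4 libraries, p-values rest on the spread between 2 animals per strain, which the quasi-likelihood fit moderates with the spread over all tested genes. With a library left out, they rest on the spread within the other strain, moderated in the same way.

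The genes and lists were chosen with earlier results of these data known. Named genes were the 8 set members, Ogdh, Ogdhl, Dld, the called genes of 5 linked lists, the 3 closest profiles, called neighbours within 100 kb, and Mlycd, the gene the series concerns (60.3 CPM ± 2.00 in DBA/2J, 113 CPM ± 5.76 in C57BL/6J, SD, n = 2). Uncalled genes named beside them were chosen after their values were seen. Promoter sequences are those of RefSeq (GRCm38.p6), found for 6 of the 8 genes. Gene annotation was GENCODE M21 (GRCm38).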

Additional observations from a re-analysis of the deposited data

How the results depend on the processing

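Under 8 alternatives that kept all 4 libraries, Dhtkd1, Crym and Gcdh kept their direction and call, and the other 5 genes were not called. These were RLE size factors, library totals alone, no filter on low counts, a mean of at least 5 CPM, the older quasi-likelihood form, DESeq2, exon length offsets and the replicate block. Dhtkd1 ranged from 1.57 to 1.73 on the log2 scale, Crym from 2.84 to 2.93 and Gcdh from -0.56 to -0.48. Aadat, not called, changed sign with library totals alone (0.0308) and with exon length offsets (0.0479); the cause was not tested. With each library left out in turn, Dhtkd1 ranged from 1.36 to 2.01, Aadat from -0.28 to 0.22 and Aldh7a1 from -0.18 to 0.0201 (the highest without C57BL/6J replicate 2). The genes called higher then numbered 1 to 2 and those called lower 0 to 1, with Crym called each time. Over all tested genes, 1454 were called higher and 1388 lower; without a filter on low counts these were 809 and 707, where more genes were tested, and with a library left out 186 to 2450 and 106 to 2455. Library totals alone gave 65.3% of calls as higher, against 51.2% in the main scaling. The replicate block gave 2395 calls against 2842, with Dhtkd1 at 1.68 (edgeR adjusted p = 0.00444). Under the block the calls of Slc7a2, Phykpl, Dlat, Glrx5, Prdx2, Glul and Stab2 were lost, 5 neighbours of Gcdh were called lower against 8, and 6 acute phase genes were called lower against 2. The labels do not tie equal replicate numbers to a shared batch, and the deviations of same-numbered libraries correlated at -0.064 across genes. That value cannot decide whether same-numbered libraries shared a batch, because differences between animals also enter it. The log2 difference of the Dhtkd1 to Ogdh ratio ranged from 1.48 to 1.92 with a library left out. The call of Phykpl was lost with library totals alone and without a filter, and those of Dlat and Ido2 without a filter. The call of Stab2 was lost without a filter and with exon length offsets. With 2 libraries per strain the precision is low, and the counts of Crym in C57BL/6J, 93 and 136, carry the largest relative counting error among the 8 genes.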

Other observations

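Markers of other liver cells were listed beside hepatocytes. Reln, a stellate cell gene, was called higher in DBA/2J (1.30 on the log2 scale), the 1 call among 4 stellate markers, whose summed level was 184 and 233 CPM in DBA/2J and 145 and 99.6 CPM in C57BL/6J. Among 4 sinusoidal endothelial markers, Stab2 was higher (0.40) and Lyve1 lower (-1.16). Among 4 red cell markers, Hba-a1 (0.72) and Alas2 (0.93) were called higher, while Hbb-bs (0.18) and Hbb-bt (-0.31) were not called. None of 4 Kupffer cell and 4 cholangiocyte markers was called in edgeR or DESeq2, and none had an unadjusted p below 0.05. Cela1, the 1 tested gene of 4 exocrine pancreas markers, was higher (1.47), while the other 3 had 0 to 2 counts per library. The Cela1 call held with any library left out, and those of Reln, Stab2, Lyve1, Hba-a1 and Alas2 were lost without DBA/2J replicate 1 and without replicate 2. Of 4 skeletal muscle markers, 2 were tested and 0 called, also in DESeq2 and at an unadjusted p below 0.05.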
